A study of Mus musculus with 28 samples.

Results

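The TAM receptors Mertk, Axl and Tyro3 and their ligands Gas6 and Pros1 were taken by symbol from the table of gene values, which made 5 of the 40021 genes listed, over all 28 retinas. Microglia were sorted from single retinas of male Cx3cr1CreER:R26-tdTomato mice on a C57BL/6 background, all heterozygous, in which the promoter of the fractalkine receptor gene drives a tamoxifen-dependent Cre that switches on a red fluorescent protein. Tamoxifen was given as eye drops at 4 to 5 weeks of age, and endotoxin-induced uveitis (EIU) was induced 4 weeks later with 10 ng lipopolysaccharide (LPS) into the vitreous. Naïve retinas carried the same alleles and received no LPS. No group was injected with the carrier alone, so effects of LPS and of the injection under anaesthesia cannot be told apart. From each retina 600 live cells with high tdTomato fluorescence were sorted by flow cytometry, so cells that carried less of the reporter were left out, and their polyadenylated RNA was amplified and sequenced. The groups held 10 naïve retinas and, by time after LPS, 6 (4 h), 5 (18 h) and 7 (2 weeks), from left and right eyes. Experiment 1 gave 6, 3, 4 and 4 of these and experiment 2 gave 4, 3, 1 and 3. The sources used here do not say which retinas came from the same mouse, so p-values measure the spread between retinas.

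TAM receptors are receptor tyrosine kinases that bind phosphatidylserine on dying cells and shed photoreceptor membrane through the bridging proteins GAS6 and protein S. Phagocytes use them to engulf such material, and their signalling also holds back cytokine production by inducing suppressors of cytokine signalling. MERTK is known in the eye for the daily uptake of photoreceptor outer segment tips by the retinal pigment epithelium, and is a receptor of resting microglia, while AXL is known as a receptor that inflamed phagocytes gain.

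Values are RPKM, read numbers corrected for transcript length and library size, so levels of different genes can be compared within a retina. Retinas had 7510000 to 19700000 alignments, at which 1 read on the longest coding transcript of Mertk was worth 0.0118 to 0.0310 RPKM. Between 6552 and 11825 genes reached 1 RPKM in a retina, fewer than 8000 of them in naïve retinas 3 and 4, in retina 4 at 18 h and in retina 1 at 2 weeks. All 10 microglial markers had a median of at least 1 RPKM in every group, and their summed RPKM was 6653 to 13233 in naïve retinas. It was 2163 to 6699 at 4 h, 3931 to 6199 by 18 h and 7793 to 12806 after 2 weeks. Rod photoreceptor markers were present in all groups, with a summed RPKM of 243 to 5292. Neutrophil markers were listed at 0 in all naïve retinas and reached a sum of 17 at 18 h.

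Changes were tested with limma on log2(RPKM + 1) over the 13164 genes that reached 1 RPKM in 5 or more retinas. A call needed a Benjamini-Hochberg adjusted p no higher than 0.05 together with a change of 2-fold or more. Mertk, Axl, Gas6 and Pros1 passed this filter and Tyro3 did not. Changes are given on that log2 scale, which understates those of low genes. In sorted bulk samples, fewer cells that express a gene and less RNA per cell cannot be told apart.

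Transcripts of the receptor gene Mertk were down-regulated in microglia early in EIU. The values here are of RNA only. The authors also ran qPCR for Mertk and other markers on remaining cDNA of the sorted cells. They report that in general it bore out the RNA changes and the return to baseline by 2 weeks. By flow cytometry the authors found a low level of MERTK protein, on a small share of microglia, that did not change after LPS. Mertk lies on chromosome 2 from 128698956 to 128802894 on the plus strand (GRCm38), and its longest coding transcript has 19 exons. Mertk had a lowest, median and highest RPKM of 23.1, 47.4 and 98.2 in the 10 naïve retinas. At 4 h these were 3.10, 9.29 and 14.2 in 6 retinas. The 5 retinas at 18 h had 12.8, 9.08, 14.3, 11.4 and 15.9, and the 7 retinas at 2 weeks had 23.3, 32.6 and 46.1 as lowest, median and highest. All values at 4 h and at 18 h lay below the lowest naïve value, and all values at 2 weeks lay within the naïve range.

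The mean RPKM of Mertk was 49.9 ± 21.6 (SD, n = 10) in naïve retinas and 9.42 ± 4.28 (SD, n = 6) at 4 h. The 4 h change was -2.31 (SE 0.31, adjusted p = 2.6e-06 by limma), a 4.95-fold decrease of RPKM + 1. At 18 h the mean was 12.7 ± 2.64 (SD, n = 5) and the change -1.81 (SE 0.33, limma adjusted p = 5.9e-04), a 3.50-fold decrease. Of the 13164 genes tested, 1.42% at 4 h and 1.3% at 18 h had every value below every naïve value, as Mertk did. Among all genes tested, Mertk ranked 1038th by its median in naïve retinas and 3420th at 4 h. Markers of the retinal pigment epithelium, which also expresses Mertk, had a summed RPKM of 1.29 to 26.0 in naïve retinas and 9.35 to 43.1 at 4 h, and endothelial markers summed to at most 4.11 in any retina. The 6 border macrophage markers had a median summed RPKM of 218 in naïve retinas, 111 (4 h), 29.2 (18 h) and 133 (2 weeks). Most of it came from Pf4. For the 8 markers of Müller glia and astrocytes the median sum was 1808, 1264, 1013 and 1778 in the same order, mostly from Apoe. Of the 7 tested, 0 were called at 4 h and 1, Glul, was called lower at 18 h, where 1.85% of genes were. Their median change was -0.10 at 4 h and -0.99 at 18 h, against -0.11 and -0.08 for all genes. Glul was called higher between 18 h and 2 weeks. The part of these cell types in the Mertk values was not tested.

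Mertk was up-regulated again between 18 h and 2 weeks by 1.28 (SE 0.35, limma adjusted p = 0.041), and all 7 values at 2 weeks lay above all 5 at 18 h, as they did for 2.09% of genes. At 2 weeks the mean was 32.4 ± 7.61 (SD, n = 7), a ratio of 0.649 to the naïve mean, and the change against naïve retinas of -0.53 was not called (95% confidence interval -1.13 to 0.07, limma adjusted p = 1). The interval therefore reached from a decrease of more than 2-fold to a slight increase. The call between 18 h and 2 weeks was lost when any of 14 retinas was left out: naïve 2 and 10, retina 5 at 4 h, any of the 5 at 18 h, and any at 2 weeks but retina 7. Without them the change was 1.17 to 1.36 and the adjusted p 0.0502 to 0.141.

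**Figure D1:**
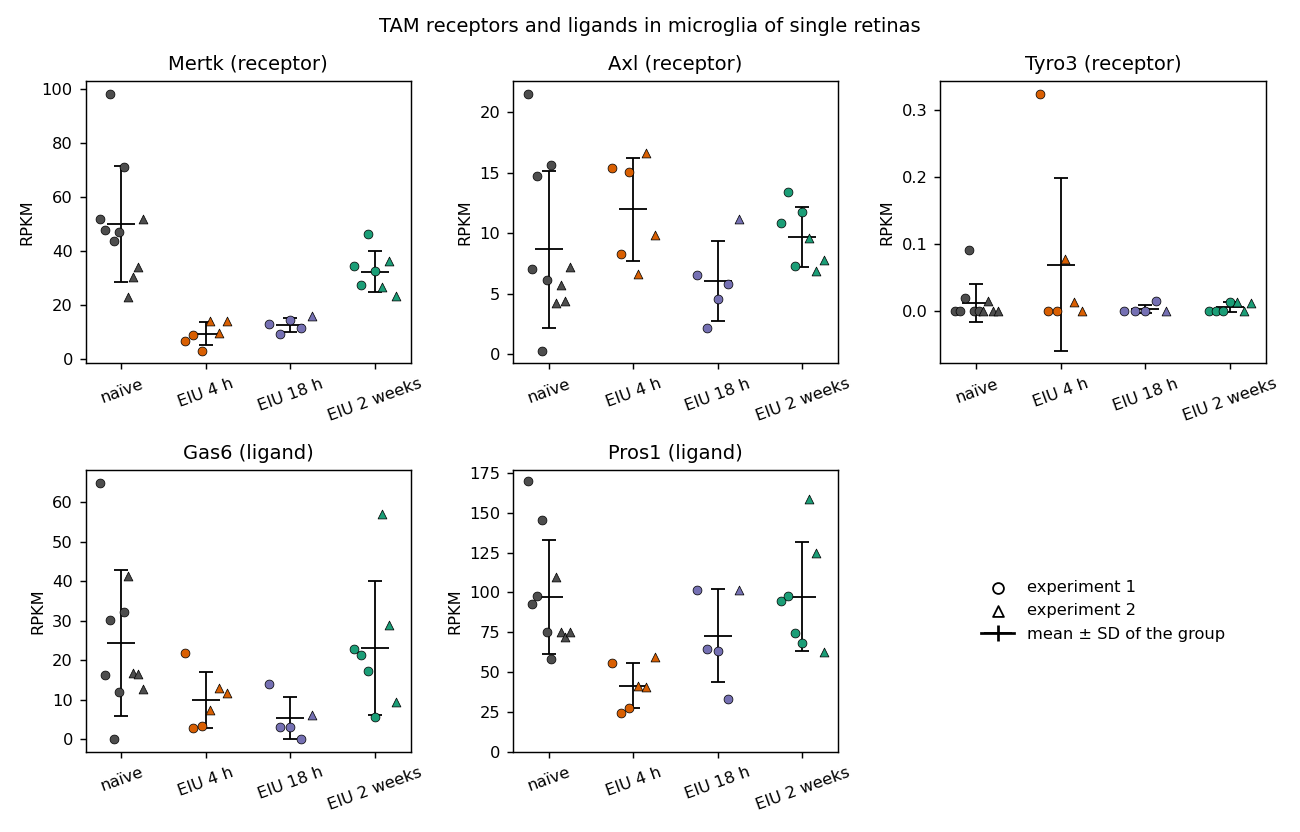
RPKM of each TAM receptor and ligand (vertical axes, linear, each with its own range) in single retinas of the 4 groups (horizontal axes), with circles for experiment 1, triangles for experiment 2 and bars for the group mean and SD. Mertk values at 4 h (3.10 to 14.2) and 18 h (9.08 to 15.9) lie below all naïve values (23.1 to 98.2), while the groups of Axl and Gas6 overlap.

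Mertk was also read within each experiment. Its naïve mean was 59.9 ± 21.1 RPKM (SD, n = 6) in experiment 1 and 34.9 ± 12.3 (SD, n = 4) in experiment 2, against 6.19 ± 2.88 (SD, n = 3) and 12.6 ± 2.49 (SD, n = 3) at 4 h. The 4 h change was -3.11 in experiment 1 and -1.35 in experiment 2. The difference of 1.76 (SE 0.55) had an unadjusted limma p of 0.0038 and an adjusted p of 0.46, and did not pass; 0.0988% of genes did, and 4.71% had an unadjusted p under 0.05. At 2 weeks limma called a difference between experiments for 0 of 4 members, with 0 at an unadjusted p under 0.05, against 0% and 2.91% of genes. With the retinas of 1 experiment alone the 4 h call of Mertk held in both. At 18 h experiment 2 had 1 retina, and in that experiment alone the change was -1.02 with an adjusted p of 0.28.

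An antisense gene, Gm14011, lies within Mertk, and the library kit does not mark strand, so strand cannot tell its reads from those of Mertk. Its highest RPKM was 30.1 in naïve retinas and 2.36 at 4 h. None of the stretches of 75 bases, the read length, in the longest coding transcripts of the 5 genes occurs on either strand in the transcripts of another gene. Untrimmed reads on the coding transcript of Mertk would thus match no transcript of Gm14011. The authors trimmed the ends of reads before alignment, so aligned reads were shorter than 75 bases. Stretches of such shorter length and reads from Mertk introns were not examined.

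Axl, the receptor tied to inflamed phagocytes, was not called at any time. Axl lies on chromosome 7 from 25757273 to 25788705 on the minus strand (GRCm38). Its lowest, median and highest RPKM were 0.312, 6.58 and 21.5 in naïve retinas and 6.66, 12.4 and 16.6 at 4 h. The 5 retinas at 18 h had 6.58, 2.20, 4.58, 5.78 and 11.2, and the lowest, median and highest after 2 weeks were 6.92, 9.65 and 13.4. Every group overlapped with the naïve range, and the lowest naïve value was that of retina 4. The mean went from 8.69 ± 6.48 (SD, n = 10) in naïve retinas to 11.97 ± 4.23 (SD, n = 6) at 4 h, with a log2 change of 0.69 (95% confidence interval -0.18 to 1.56, limma adjusted p = 0.38). At 18 h the change was -0.25 (-1.17 to 0.67, adjusted p = 0.84) and at 2 weeks 0.45 (-0.38 to 1.28, adjusted p = 1). An increase of more than 2-fold at 4 h was thus within the interval. Between 4 h and 18 h the change was -0.94 (SE 0.50, -1.95 to 0.08, limma adjusted p = 0.37), and 4 of 5 retinas at 18 h lay below all values at 4 h. With array weights, which give retinas that scatter more a lower weight, the limma adjusted p went to 0.039 for the 4 h change, then 0.81, and to 0.030 for the step from 4 h to 18 h, then -0.90, both short of 2-fold.

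The balance between both receptors is a ratio within a retina and does not depend on library scaling. The ratio of Mertk to Axl RPKM was 2.41 at the lowest, 6.74 at the median and 140 at the highest in naïve retinas, where the highest was that of retina 4. At 4 h the corresponding ratios were 0.207, 0.826 and 2.13. They were 1.42, 1.97 and 4.12 by 18 h and 2.04, 3.00 and 6.32 after 2 weeks. All ratios at 4 h lay below all naïve ratios, and the ratios at 18 h and 2 weeks overlapped with them. Of the summed receptor RPKM, Mertk made up 70.7% to 99.1% in naïve retinas and 17.1% to 67.8% at 4 h, then 58.7% to 80.5% by 18 h and 67.2% to 86.3% after 2 weeks. These ratios are a description and were not tested. The summed RPKM of the 3 receptors had a median of 53.9 in naïve retinas, then 21.7 (4 h), 18.9 (18 h) and 43.2 (2 weeks).

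**Figure D2:**
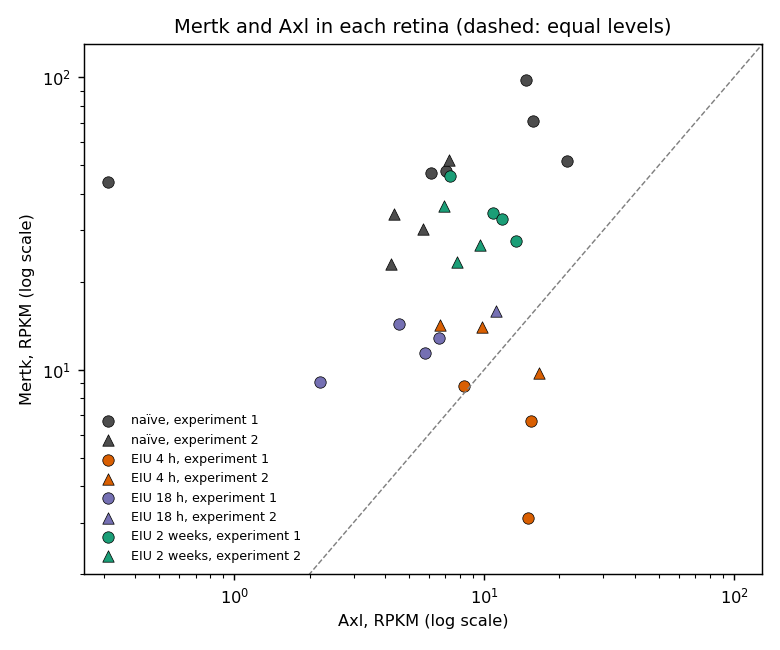
Mertk RPKM against Axl RPKM in each of the 28 retinas, both axes logarithmic, coloured by group, with circles for experiment 1, triangles for experiment 2 and a dashed line where both are equal. Retinas at 4 h sit around the line, with ratios from 0.207 to 2.13, and naïve retinas above it, with ratios from 2.41 to 140.

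Tyro3, the TAM receptor known best from neurons, was at or near 0 throughout. It lies on chromosome 2 from 119797733 to 119818104 on the plus strand (GRCm38). It was listed at 0 in 7 of 10 naïve retinas and, by time, in 3 of 6, 4 of 5 and 4 of 7. The highest value in any retina was 0.324 RPKM, in retina 1 at 4 h, where 1 read was worth between 0.0114 and 0.0299 RPKM over the range of depths. Two-sided exact permutation tests of log2(RPKM + 1) gave p = 0.16, 0.71 and 0.78 against naïve retinas in the order of time, all with an adjusted p of 0.78 over the 5 comparisons. No change was detectable at this depth.

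The ligand Pros1, which encodes the vitamin K-dependent protein S, had the highest level of the 5 genes and was down-regulated at 4 h. It lies on chromosome 16 from 62854307 to 62929346 on the plus strand (GRCm38). In naïve retinas its lowest, median and highest RPKM were 58.2, 84.0 and 170. At 4 h they were 24.6, 41.2 and 59.3. The 5 retinas at 18 h had 101, 64.8, 63.4, 33.2 and 102, and at 2 weeks the 3 values were 62.6, 94.9 and 158. At 4 h 5 of 6 retinas lay below all naïve retinas, at 18 h 1 of 5 did and at 2 weeks none.

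The 4 h change of Pros1 was -1.20 (SE 0.30, limma adjusted p = 0.0073), a 2.30-fold decrease of RPKM + 1, from a mean of 97.1 ± 35.6 (SD, n = 10) to 41.6 ± 14.1 (SD, n = 6). At 18 h the mean was 72.9 ± 29.0 (SD, n = 5) and the change -0.44 (95% confidence interval -1.08 to 0.20, limma adjusted p = 0.51). At 2 weeks the mean was 97.4 ± 34.2 (SD, n = 7) and the change 0.01 (-0.57 to 0.59, adjusted p = 1). Within experiment 1 alone the 4 h change was -1.54 with an adjusted p of 0.078, and within experiment 2 alone -0.80 with an adjusted p of 0.099, so the call needed the retinas of both.

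The ligand Gas6, a vitamin K-dependent protein like protein S, varied widely between retinas of a group, and none of its changes was called. Gas6 lies on chromosome 8 from 13465374 to 13494490 on the minus strand (GRCm38), and its last part overlaps Tmem255b on the other strand, which had at most 0.453 RPKM in any retina. The lowest, median and highest RPKM of Gas6 were 0.132, 16.7 and 65.0 in naïve retinas. They were 2.89, 9.64 and 21.8 at 4 h and 5.59, 21.3 and 57.0 after 2 weeks. The 5 retinas at 18 h had 14.1, 3.24, 3.12, 0.207 and 6.11. Naïve retina 4 and retina 4 at 18 h, both among the 4 with the fewest genes, had the lowest values of their groups. All groups overlapped with the naïve range, and without naïve retina 4, which held its lowest value, the next lowest naïve value was 12.03.

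Gas6 had a mean of 24.3 ± 18.5 RPKM (SD, n = 10) in naïve retinas and 10.0 ± 7.09 (SD, n = 6) at 4 h. By 18 h it was 5.35 ± 5.31 (SD, n = 5) and after 2 weeks 23.2 ± 16.9 (SD, n = 7). The change at 4 h was -0.96 (95% confidence interval -2.25 to 0.33, limma adjusted p = 0.42). At 18 h it was -1.92 (-3.29 to -0.56, limma adjusted p = 0.099), not called. Without naïve retina 4 the 18 h change was -2.37 with a limma adjusted p of 0.0068. Without each of the other 27 retinas in turn it stayed uncalled, with changes as small as -1.44 and adjusted p up to 0.27. Without the 4 retinas under 8000 genes, a setting added after seeing the data, it was -1.83 with an adjusted p of 0.039. From 18 h to 2 weeks Gas6 differed by 2.07 (SE 0.72, limma adjusted p = 0.13), and by the same amount with an adjusted p of 0.037 without naïve retina 4. This difference too stayed uncalled without each of the other 27 retinas, with a limma adjusted p up to 0.34.

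Gas6 is also a gene of macrophages at the borders of the retina, and 6 markers of these cells were read beside it. Their summed RPKM had a median of 218 in naïve retinas, with 0.146 as the lowest and 538 as the highest. The median was 111 at 4 h (37.8 to 338), 29.2 by 18 h (5.02 to 41.1) and 133 after 2 weeks (0.714 to 382). In group means most of the sum came from Pf4, with 172, 117, 18.2 and 133 RPKM from naïve retinas to 2 weeks. Of the 6 markers 0 were called in any comparison. In naïve retinas 6 of 6 markers had a median of at least 1 RPKM, and at 18 h 2 of 6 did, while none was at 0 in all retinas of a group. Naïve retina 4 had the lowest marker sum, 0.146, as well as the lowest Gas6 value. Naïve retina 1 had the highest Gas6 value, 65.0, with a marker sum of 16.8. The part of these cells in the Gas6 values was not tested.

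**Figure D3:**
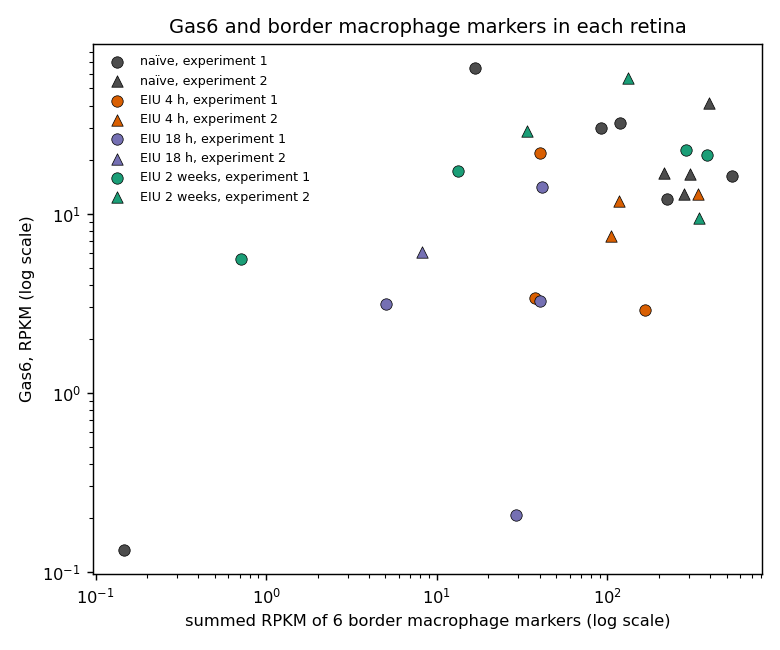
Gas6 RPKM (vertical axis) against the summed RPKM of 6 border macrophage markers (horizontal axis) in each of the 28 retinas, both axes logarithmic, coloured by group with circles for experiment 1 and triangles for experiment 2. The 5 retinas at 18 h sit at marker sums of 5.02 to 41.1, naïve retina 4 stands alone at 0.146, and naïve retina 1 has the highest Gas6 value at a sum of 16.8.

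Counted together, 2 of the 4 members tested were called lower at 4 h, Mertk and Pros1, where 4.39% of the genes tested were called lower and 8.08% in either direction. At 18 h 1 of 4 was called lower, Mertk, where 1.85% of genes were, and 4.69% in either direction. At 2 weeks 0 of 4 were called by limma and 0 had an unadjusted p under 0.05, where 0.0076% of genes were called and 2.87% had such a p. Between 4 h and 18 h limma called 0 of 4, and 1 of 4, Pros1 with a change of 0.76, had an unadjusted p under 0.05 (adjusted p = 0.26), where 5.42% of genes were called and 16.3% had such a p. Between 18 h and 2 weeks 1 of 4 was called higher, Mertk, where 1.1% of genes were, and 2.65% in either direction. Comparisons with naïve retinas share those 10 retinas.

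**Figure D4:**
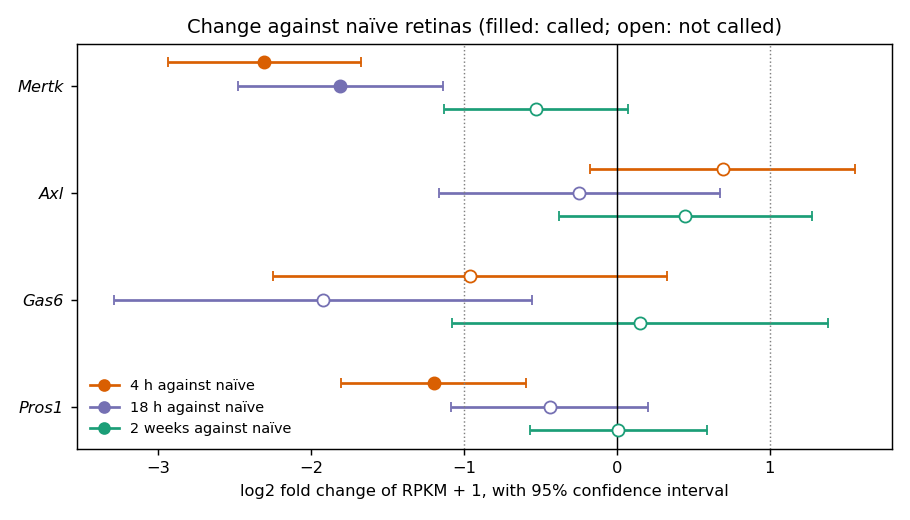
Log2 fold change of RPKM + 1 against naïve retinas (horizontal axis, with 95% confidence intervals from limma) of the 4 members tested (vertical axis) at each time, with filled points for calls, open points for changes not called and dotted lines at a 2-fold change. The 3 filled points are Mertk at 4 h (-2.31) and 18 h (-1.81) and Pros1 at 4 h (-1.20), and the interval of Gas6 at 18 h (-3.29 to -0.56) does not include 0 though its adjusted p was 0.099.

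The order of the 5 genes by median RPKM changed with time. In naïve retinas it was Pros1, Mertk, Gas6, Axl and Tyro3, and each gene differed from the next in two-sided exact sign-flip permutation tests within retinas (adjusted p = 0.042, 0.042, 0.031 and 0.031 over the 16 pairs of neighbours). At 2 weeks the order was the same, but Mertk and Gas6 (exact adjusted p = 0.15) and Gas6 and Axl (0.10) did not differ beyond their spread. At 4 h it was Pros1, Axl, Gas6, Mertk and Tyro3, with 41.2, 12.4, 9.64, 9.29 and 0.00697 RPKM, and Axl, Gas6 and Mertk could not be separated (exact adjusted p = 0.46 and 0.94). At 18 h it was Pros1, Mertk, Axl, Gas6 and Tyro3. With 6 and 5 retinas these tests cannot go below p = 0.031 at 4 h and 0.0625 at 18 h. Of the summed ligand RPKM, Pros1 made up a median of 81.5% in naïve retinas, then 84.1% (4 h), 95.2% (18 h) and 81.3% (2 weeks).

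The genes whose log2(RPKM + 1) followed that of a member most closely over the 28 retinas were named by Pearson's r, as a description of shared pattern in the same libraries. For Mertk these were Hpgd (r = 0.90), which encodes a prostaglandin-degrading enzyme, Dock4 (0.90) and Gfm2 (0.89). Hpgd had mean RPKM of 372, 46.4, 76.7 and 344 from naïve retinas to 2 weeks. For Pros1 they were Tmem86a (0.92), Gna15 (0.90) and Uba7 (0.88). For Gas6 they were Ctsf (0.88), a lysosomal cysteine protease, Neurl3 (0.86) and Mbnl2 (0.85), and Ctsf had means of 30.1, 20.1, 6.31 and 34.3 RPKM in the same order of groups. For Axl they were Ankrd13a (0.74), Zfp110 (0.71) and Pik3r5 (0.71). Among the members themselves r was 0.63 for Mertk and Pros1 and -0.03 for Mertk and Axl.

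The promoters of Mertk and Pros1, both called at 4 h, and of Axl, which was not, are shown to set their sequence beside their values. Each is the 250 bases before the transcription start in RefSeq (GRCm38.p6), read along the gene, at chr2:128698665-128698914 on the plus strand, chr16:62854057-62854306 on the plus strand and chr7:25788734-25788983 on the minus strand. Capitals mark the GC box GGGCGG, bound by SP factors, and the core GAGGAA of sites of PU.1, a factor of myeloid cells, on either strand.
Mertk: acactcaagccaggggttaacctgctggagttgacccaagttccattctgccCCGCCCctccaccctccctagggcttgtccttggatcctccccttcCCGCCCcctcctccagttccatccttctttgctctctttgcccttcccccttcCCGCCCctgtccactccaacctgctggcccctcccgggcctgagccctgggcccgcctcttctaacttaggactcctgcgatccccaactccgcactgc
Pros1: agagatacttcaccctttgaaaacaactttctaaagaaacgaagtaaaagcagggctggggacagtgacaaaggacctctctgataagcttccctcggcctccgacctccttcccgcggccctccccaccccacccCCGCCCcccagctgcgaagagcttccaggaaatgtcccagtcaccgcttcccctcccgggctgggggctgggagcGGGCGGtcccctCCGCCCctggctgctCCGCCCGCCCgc
Axl: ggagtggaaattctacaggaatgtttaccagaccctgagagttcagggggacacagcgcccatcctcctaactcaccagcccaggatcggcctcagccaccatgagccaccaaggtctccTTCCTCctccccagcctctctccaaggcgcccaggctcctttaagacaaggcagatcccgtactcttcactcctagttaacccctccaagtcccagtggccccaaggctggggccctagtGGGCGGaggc
The GC box occurred 3 times for Mertk, 5 times for Pros1, of which 2 overlap, and once for Axl, and in 32.7% of 32851 mouse promoter windows of this length at least once. Those of Gas6 and Tyro3 held 4 and 3. The PU.1 core occurred once for Axl and in 23.3% of windows. An interferon gamma-activated site, TTCNNNGAA, occurred once for Pros1 and in 7.02% of windows. The TATA box TATAAA, the interferon-stimulated response element (GAAA, any 2 bases, GAAA), the NF-kappa B site (GGG, any 2 bases, TTTCC) and the LXR repeat (AGGTCA, any 4 bases, AGGTCA) had no match on either strand in the windows of the 5 genes, against 12.4%, 2.98%, 1.41% and 0.0152% of all windows. These letters describe the windows only.

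Around the receptors, 8 lists of pathway genes held 78 genes, of which 64 were tested. At 4 h 4 of the 64 were called higher and 3 lower, at 18 h 1 higher and 4 lower, and at 2 weeks 0 by limma. Among all genes 3.68% were called higher and 4.39% lower at 4 h, and 2.84% and 1.85% at 18 h. The median change of all genes was -0.11 at 4 h and -0.08 at 18 h, and list medians are given beside it.

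GAS6 and protein S need vitamin K-dependent carboxylation to bind phosphatidylserine. Of the 3 genes of that step 0 were called at either time, with a median change of -0.29 at 4 h and -0.17 at 18 h. Vkorc1, the vitamin K epoxide reductase, had mean RPKM of 101, 81.6 and 78.5 in naïve retinas and at both early times, while its paralogue Vkorc1l1 (2.90, 1.96 and 1.96) and the carboxylase gene Ggcx (1.45, 0.679 and 0.802) were low. Of 3 genes of other MERTK ligands 0 were called at either time, with medians of 0.30 and -0.13. Lgals3, which encodes galectin-3, had means of 16.8, 11.1 and 40.7 RPKM, and its 18 h change of 2.55 did not pass (limma adjusted p = 0.19). Tulp1, a gene of photoreceptors, had 19.0, 18.8 and 8.08 RPKM and Tub 1.12, 1.04 and 0.809.

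Of 6 genes of receptor shedding 1 rose and 1 fell at 4 h and 0 changed at 18 h, with medians of 0.28 and -0.28. Rhbdf2, a partner of the sheddase ADAM17, rose by 1.95 (limma adjusted p = 0.0015) from a mean of 0.671 to 6.55 RPKM, with 2 of 6 retinas above all naïve ones. Adam10, a sheddase, fell by 1.44 (limma adjusted p = 6.0e-04) from 38.4 to 12.6 RPKM, with 6 of 6 retinas below all naïve ones. Adam17, which cleaves MERTK, had 9.75 and 11.7 RPKM and was not called.

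Of 5 tested genes through which TAM receptors feed back on cytokine signalling, 2 rose at 4 h and 0 at 18 h, with medians of 0.74 and 0.70. Socs3 rose by 5.66 (limma adjusted p = 2.8e-08) from 1.86 to 170 RPKM, all 6 retinas lying above all naïve ones, and Socs1 rose by 1.73 (adjusted p = 0.013) from 0.691 to 5.97 RPKM. Both encode suppressors of cytokine signalling. At 18 h Socs3 had a mean of 3.84 RPKM.

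Nuclear receptors that are known to drive Mertk were read with their targets. Of 9 LXR, RXR and PPAR factors and targets 6 were tested, of which 0 were called at 4 h and 1 at 18 h, with medians of -0.40 and -0.51. That gene was Mylip, an LXR target that marks the LDL receptor for degradation, which fell by 1.65 (limma adjusted p = 0.010) from 31.8 to 9.005 RPKM. The LXR targets Abca1 and Abcg1, lipid exporters, had changes of 0.14 and -0.89 at 4 h and were not called. Among the factors themselves Nr1h2, Rxra and Rxrb were tested and not called, while Nr1h3, Ppard and Pparg missed the filter and were not tested. From naïve retinas to 18 h the mean RPKM went from 0.071 to 1.20 for Nr1h3, 0.348 to 0.113 for Ppard and 0.265 to 0.0117 for Pparg. Of 6 genes of the glucocorticoid receptor and its targets 2 fell at 4 h and 1 at 18 h, with medians of -0.90 and -1.18. Nr3c1, the receptor itself, fell by 1.38 at 4 h (limma adjusted p = 0.0074) and by 1.67 at 18 h (adjusted p = 0.0047), from 18.6 RPKM to 6.75 and 5.62. Tsc22d3, a glucocorticoid target, fell by 1.61 at 4 h (adjusted p = 0.024) from 35.3 to 13.7 RPKM.

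Of 20 tested genes of other phosphatidylserine receptors and bridging molecules, 1 rose at 4 h, and 1 rose and 2 fell at 18 h, with medians of -0.08 and -0.14. Cd300lf, a lipid-binding receptor, rose by 1.84 at 4 h (limma adjusted p = 0.012) from 1.81 to 9.20 RPKM. At 18 h the scavenger receptor Cd36 rose by 2.51 (adjusted p = 0.038) from 11.3 to 61.4 RPKM, all 5 retinas lying above all naïve ones. Trem2, a lipid receptor of microglia, fell by 2.08 (adjusted p = 5.2e-04) from 129 to 32.4 RPKM, and Itgb3, an integrin subunit of the receptor for MFGE8, fell by 1.61 (adjusted p = 0.010) from 3.44 to 0.364 RPKM. Monocyte markers summed to 143 to 320 RPKM at 18 h against 9.86 to 57.0 in naïve retinas, mostly from Ms4a4c, and their part in these values was not tested. Of 15 tested engulfment signalling genes 0 were called at either time, with medians of -0.24 and -0.45.

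For comparison, 9 of 16 genes of homeostatic microglia fell at 4 h and 10 at 18 h, with medians of -1.55 and -1.53, so that Mertk with -2.31 and -1.81 lay beyond both. Among these changes were those of Gpr34, a lysophosphatidylserine receptor (-3.81 at 18 h), Slc2a5, a fructose transporter (-3.50 at 18 h), and P2ry12, a purine receptor (-3.28 at 18 h). Of 24 tested interferon-stimulated genes 11 rose at 4 h and 11 at 18 h, with medians of 1.62 and 1.98, led by Ifit1 (5.91 at 4 h), Isg15 (4.88 at 4 h), Ifitm3 (4.21 at 18 h) and Oasl1 (3.98 at 4 h). Axl, often counted with such genes, had 0.69 and -0.25.

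**Figure D5:**
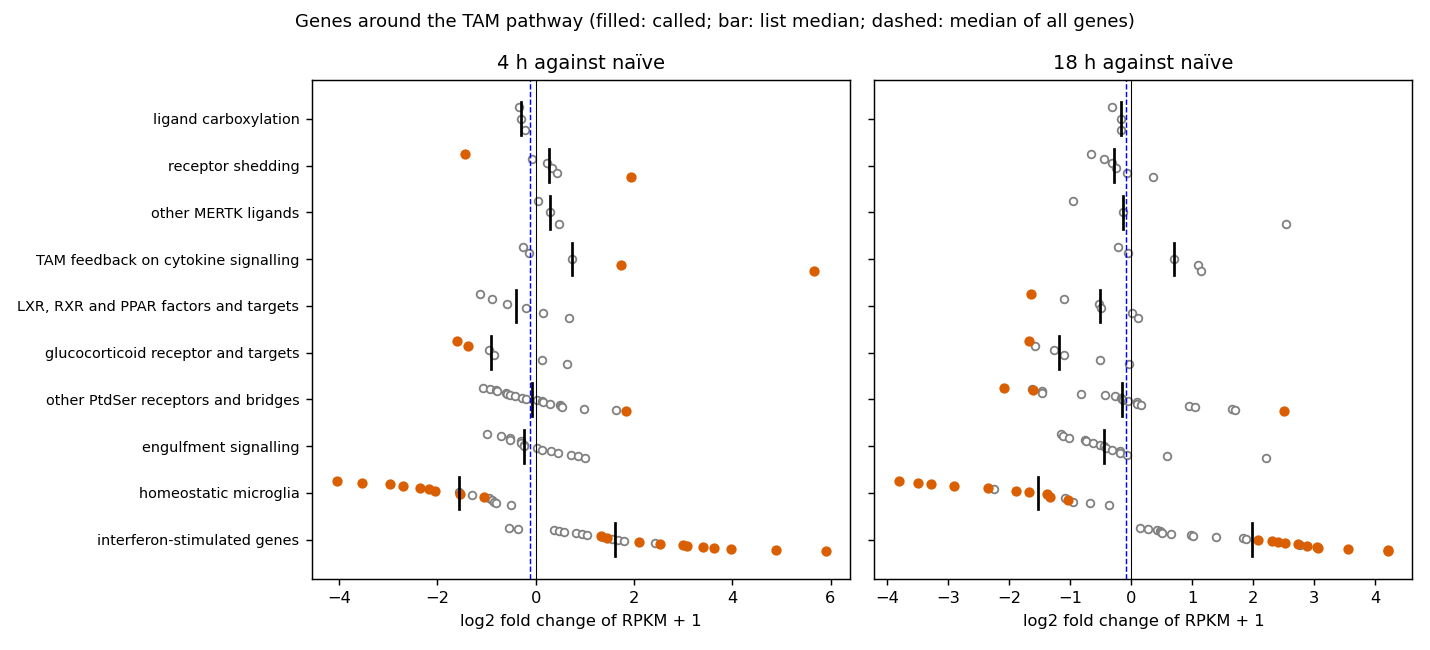
Log2 fold change of RPKM + 1 (horizontal axes) at 4 h and 18 h against naïve retinas of the genes tested in each list (vertical axis), 1 point per gene, filled where called, with a black bar at the list median, a solid line at 0 and a dashed line at the median of all genes (-0.11 and -0.08). Of 64 genes in the 8 lists around the TAM receptors, 7 are filled at 4 h and 5 at 18 h. Among all genes 8.08% and 4.69% were called at these times. Homeostatic genes sit to the left and interferon-stimulated genes to the right.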

How the data were processed

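Values of single retinas were analysed in 4 groups, with groups, experiment and eye side from the sample labels. The authors trimmed the reads, aligned them to mm10 with STAR 2.5.3a after conversion with bcl2fastq 2.20, and assigned them to Ensembl transcripts by the expectation-maximisation of Partek, in which 1 read may count in part for several genes. The authors deposited RPKM values, so whole reads could not be recovered, and very low values or values of 0 may come from that estimate. The deposited table gives alignments per retina. The authors also deposited tables of DEGs with p-values and ratios, which were not used. The members and gene lists were chosen with earlier results of these data known.

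RPKM were transformed with a pseudocount of 1. All 28 retinas entered 1 fit of the 4 groups without covariates in limma 3.58.1 (R 4.3.3), with empirical Bayes moderation and a mean-variance trend, and p-values were adjusted over the 13164 genes. Differences between experiments were tested as an interaction, and Tyro3 and the order of levels by exact permutation. Adam17, Abca1, Abcg1, the LXR, RXR and PPAR factors and the genes beside cell markers were named with their values known. The rule for the other genes named took the members and the 3 genes most correlated with each. It also took up to 4 called genes with the largest change in each list, and all genes of lists of 3. A result that this rule names is not reported here. Coordinates are from GENCODE M21 (GRCm38), overlaps of read-length stretches from its transcripts, and promoters from RefSeq. Protein sequences were not analysed here. Alternatives were pseudocounts of 0.1 and 10, other filters, covariates, 1 experiment alone, other scalings, array weights, a replicate block and each retina left out; leaving out the 4 retinas under 8000 genes was added after seeing the data. Figures were drawn in Python 3.11.15.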

Additional observations from a re-analysis of the deposited data

Results flagged for a closer look

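Of 20 pairs of a gene and a group examined, 3 held a retina far from the others, and all 3 were Tyro3. Chance gives about 1 in 20 for values that scatter evenly. Tyro3 was listed at 0 in 7 of 10 naïve retinas, 3 of 6 at 4 h and 4 of 5 at 18 h. That rate does not hold for values with so many at 0. In naïve retinas Tyro3 was highest in retina 4, at 0.0906 RPKM against 0.0189 in the next. At 4 h it was highest in retina 1, at 0.324 RPKM against 0.0781 in the next. At 18 h it was above 0 in retina 4 alone, at 0.0142 RPKM, and a lone value above 0 stands apart whatever its size.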

How the results depend on the processing

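The calls of Mertk at 4 h held under all 17 other settings and without each of the 28 retinas, with changes from -3.11 to -1.35. At 18 h its call was lost with experiment 2 only (-1.02, 0 members called). The number of members called at 4 h fell from 2 to 1 with experiment 1 only, experiment 2 only and array weights, where Pros1 had -1.54, -0.80 and -0.84. At 18 h it rose from 1 to 2 with the number of genes detected as covariate, quantile normalisation, array weights and without the retinas under 8000 genes, each time by Gas6, and was 1 to 2 when each retina was left out. Between 18 h and 4 h it was 1, Pros1, without the retinas under 8000 genes (1.01, adjusted p = 0.046 by limma). Between 18 h and 2 weeks it was 0 with pseudocounts of 0.1 and 10, eye side, the replicate block, experiment 1 only, experiment 2 only, untransformed RPKM and quantile normalisation, 2 with array weights, and 0 to 2 when each retina was left out. Under quantile normalisation the adjusted p of Mertk there was 0.055. Beyond fewer samples or genes, the cause of these changes was not tested.

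Signs turned only in changes that were not called. At 18 h Axl was 0.96 and Pros1 0.31 with experiment 2 only, and Axl ranged from -0.53 to 0.0072 when each retina was left out. At 2 weeks Gas6 was -0.0044 with a pseudocount of 10, -0.0034 with genes detected as covariate, -0.019 with experiment 1 only, -0.066 untransformed, -0.033 under quantile normalisation, -0.29 without the retinas under 8000 genes, and -0.29 to 0.41 when each retina was left out. Pros1 there was -0.025 with genes detected as covariate, -0.12 with the replicate block, -0.26 with experiment 1 only, -0.016 under quantile normalisation, -0.019 rescaled to equal summed RPKM, and -0.12 to 0.11 when each retina was left out. With experiment 2 only Axl was 0.10 between 4 h and 18 h and -0.43 between 18 h and 2 weeks. Without each retina the difference between experiments ranged at 4 h from -0.088 to 0.78 for Axl and from -0.16 to 1.12 for Gas6, and at 2 weeks from -0.16 to 0.66 for Axl and from -0.20 to 1.13 for Gas6, and that of Axl at 2 weeks was -0.067 with a pseudocount of 0.1.

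Rescaling to equal summed RPKM moved the median change of all genes at 4 h from -0.11 to -0.28; relative to it Mertk was -2.30, Pros1 -1.20, Gas6 -0.92 and Axl 0.73. At 18 h the median moved from -0.08 to -0.26, and Mertk lay -1.86 from it. Replicate numbers were not shown to pair the retinas, and a pairing was not excluded. The 34 pairs of retinas with the same number in different groups had a median correlation of deviations of 0.035 (-0.33 to 0.70). For the 253 pairs with other numbers it was 0.0054 (-0.55 to 0.69). Of 28 retinas 7 correlated best with a retina of their own number, and the share that chance gives was not computed. With the replicate block Mertk changed by 1.33 between 18 h and 2 weeks (limma adjusted p = 0.073), and the block changed no other call of a member. Depth limits what can be said of Tyro3, and the spread between retinas what can be said of Gas6 and Axl.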
